A study of Mus musculus with 6 samples.

Results

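The TNF superfamily consists of trimeric ligands, mostly anchored in the cell membrane, and of the receptors that bind them. Genes were taken as members when their symbol starts with Tnfsf or Tnfrsf, or is Tnf, Lta, Ltb, Cd40, Cd40lg or Ltbr. This gave 35 of the 19938 genes measured, 13 ligands and 22 receptors. Where a gene has several probe sets, its representative was to be selected on the highest mean signal over the 6 arrays, but each of the 35 members had 1 probe set, so measured values decided nothing. The rule for members uses symbols and not the difference between genotypes, but the family itself was picked with earlier results of these data known. A further probe set that carries several family symbols was left out. The ligand genes Tnfsf12 (TWEAK) and Tnfsf13 (APRIL) were not among the genes measured, so nothing is said of them.

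The cells were mouse pre-B cells transformed with BCR-ABL1, the fusion kinase behind Philadelphia chromosome-positive leukaemia, and their total RNA was hybridised to Affymetrix arrays. Wild-type Dusp6 cells (Dusp6 WT, 3 arrays) were compared with Dusp6 knockout cells (Dusp6 KO, 3 arrays). Dusp6 encodes a phosphatase that inactivates ERK. Both groups carried BCR-ABL1, and the strain of both was C57Bl/6-SV129j. The labels give neither the way BCR-ABL1 was introduced nor the age of the mice, and they do not say whether arrays of a genotype came from separate animals or cultures. The p-values therefore cover only the scatter among these 6 samples, and that scatter could be technical.

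Ligands of the family are made by many immune cells, and B lineage cells both produce them and respond to them. Most receptors recruit TRAF adaptor proteins and pass the signal to NF-kB and to JNK and p38 kinases, whereas a subgroup holds a cytoplasmic death domain and can start apoptosis or necroptosis. Decoy receptors bind ligand without passing on a signal. In lymphoid tissue the lymphotoxins organise lymph nodes and follicles, BAFF sustains mature B cells, and CD40 receives help from T cells.

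Values are log2 signals as the authors deposited them, and differences are KO minus WT. Dusp6 itself fell by 3.36 on the log2 scale (SE 0.0521, limma adjusted p = 4.3e-10). Arrays of the same genotype correlated at 0.996 to 0.998 and arrays of different genotypes at 0.987 to 0.989. Because probes differ in brightness, signals of different genes were compared only coarsely. They were set against the median or lower quartile of all genes, and averaged over lists of cell type markers. In bulk RNA, a change in the share of cells that express a gene and a change in RNA per cell cannot be told apart.

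The family's genes were mostly higher in the KO cells where they differed. Of the 35 members, 14 rose (40.0%, against 9.66% of all genes tested) and 2 fell (5.71%, against 10.2% of all genes), at an adjusted p under 0.05. Since the family was picked with such results known, these shares describe it and are no independent evidence of a direction. The number that fell was 1 without WT replicate 1, WT replicate 3 or KO replicate 2. The median log2 difference was 0.11 over the members and 0.0018 over all genes. Among the ligands 7 of 13 rose (53.8%) and 1 fell (7.69%), and among the receptors 7 of 22 rose (31.8%) and 1 fell (4.55%). The KO arrays lay wholly above the WT arrays in 17 members (48.6%, against 17.3% of all genes) and wholly below them in 2 (5.71%, against 18.4%). Called changes of at least 2-fold were seen in 2 of the 35 members, Lta and Tnfrsf19, and in 258 of all 19938 genes.

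**Figure D1:**
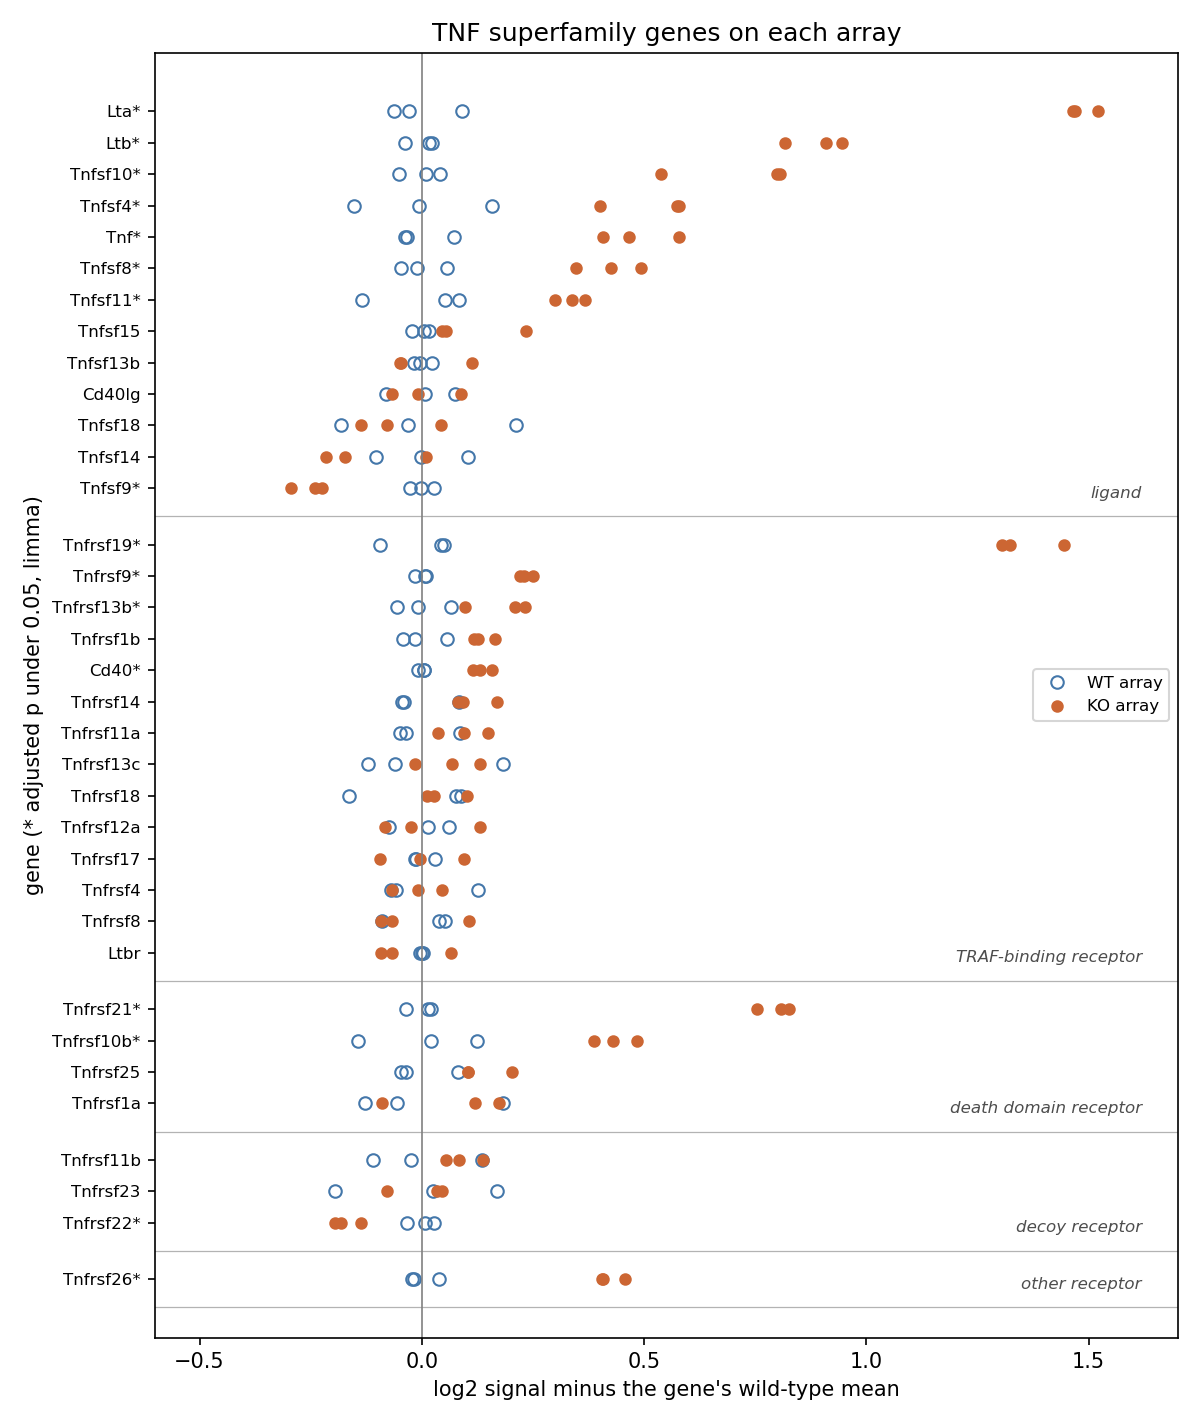
Log2 signal of each of the 35 members on each array, minus that gene's mean over the 3 WT arrays, for WT (open circles) and KO (filled circles). Members are grouped by role, and an asterisk marks an adjusted p under 0.05. The KO points of Lta and Tnfrsf19 lie more than 1 log2 unit to the right of WT, and those of Tnfsf9 and Tnfrsf22 lie to the left.

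The ligand genes Lta, Ltb and Tnf, which stand next to each other on chromosome 17, all rose. Lta encodes lymphotoxin alpha, which as a homotrimer binds the TNF receptors and, joined to lymphotoxin beta, binds the lymphotoxin beta receptor. Its signal was 10.67, 10.55 and 10.51 on the WT arrays and 12.10, 12.04 and 12.04 on the KO arrays. The groups were far apart, with a difference of 1.49 (SE 0.0506), or 2.80-fold (limma adjusted p = 4.9e-08). Ltb encodes the membrane-anchoring partner, lymphotoxin beta. It read 9.15, 9.14 and 9.09 in WT and 10.07, 9.95 and 10.04 in KO. The groups did not overlap, and the difference was 0.89 (SE 0.0476), or 1.85-fold (limma adjusted p = 1.1e-06). Tnf encodes tumour necrosis factor, the inflammatory cytokine of the family. Its signal was 12.08, 11.97 and 11.98 in WT and 12.59, 12.42 and 12.48 in KO. The difference of 0.48 (SE 0.0562), or 1.40-fold, exceeded the spread in both groups (limma adjusted p = 0.00022).

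The genes around this cluster had smaller differences. In the order of protein-coding genes on GRCm38.p6, the 4 genes before Ltb (Bag6, Prrc2a, Aif1 and Lst1) had differences of −0.042, −0.13, 0.12 and −0.11, and none was called. On the other side, next to Lta, Nfkbil1 differed by 0.11 (limma adjusted p = 0.15), Atp6v1g2 rose by 0.15 (0.039) and Ddx39b fell by 0.14 (0.045). Whether they differed from the ligand genes was not tested.

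**Figure D2:**
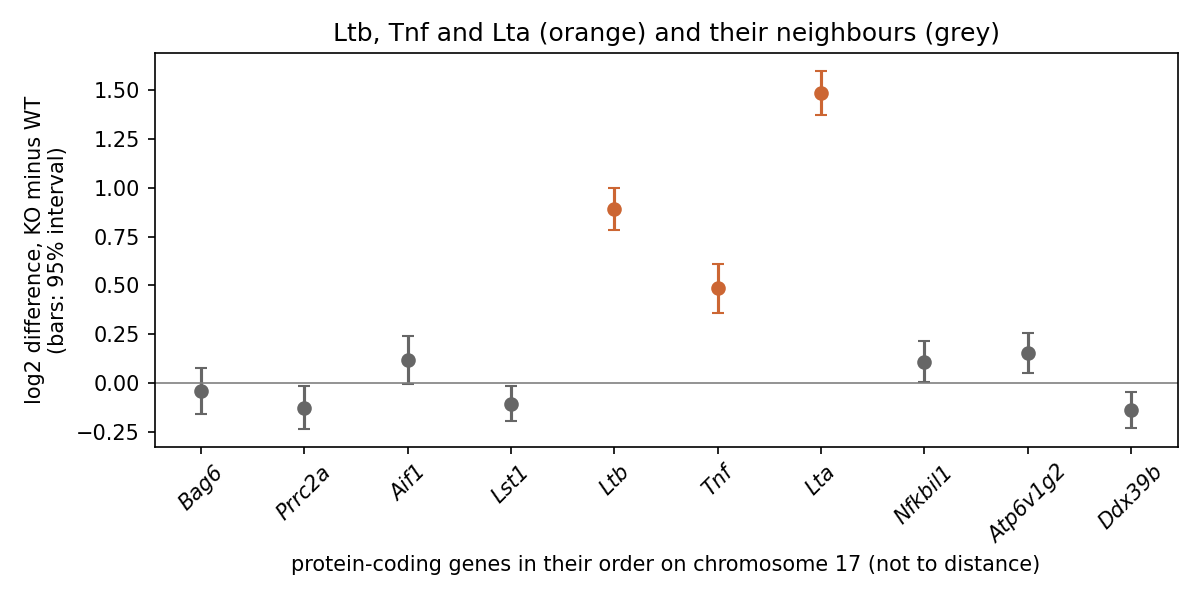
Log2 difference, KO minus WT, with its 95% interval for Ltb, Tnf and Lta (orange) and for 7 neighbouring genes (grey), in chromosome order but not to distance. The 3 ligand genes stand at 0.89, 0.48 and 1.49, and the neighbours lie between −0.14 and 0.15.

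Because these 3 ligand genes moved together, their promoter sequences are shown here, from 250 bases before to 50 bases after the RefSeq start of each gene (GRCm38.p6, 5′ to 3′ on the strand of the gene). Ltb lies at chr17:35194257-35194556 on the plus strand, Tnf at chr17:35201958-35202257 on the minus strand and Lta at chr17:35205302-35205601 on the minus strand. Capitals mark matches, on either strand, to the NF-kB consensus, to the TATA box TATAAA, to the AP-1 motif TGANTCA or to the palindromic STAT motif TTCNNNGAA. None of the matches in these runs overlap.
Ltb: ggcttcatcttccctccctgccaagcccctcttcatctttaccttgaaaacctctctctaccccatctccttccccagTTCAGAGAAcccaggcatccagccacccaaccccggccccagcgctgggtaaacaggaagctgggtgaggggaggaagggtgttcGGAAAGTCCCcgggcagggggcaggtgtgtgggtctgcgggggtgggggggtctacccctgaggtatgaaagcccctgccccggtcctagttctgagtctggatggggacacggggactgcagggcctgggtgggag
Tnf: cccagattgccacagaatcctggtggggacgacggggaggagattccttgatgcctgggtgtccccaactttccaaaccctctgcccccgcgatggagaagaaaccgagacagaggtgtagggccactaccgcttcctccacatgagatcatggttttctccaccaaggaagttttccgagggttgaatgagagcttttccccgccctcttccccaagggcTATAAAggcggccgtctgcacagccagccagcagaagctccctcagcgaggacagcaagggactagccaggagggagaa
Lta: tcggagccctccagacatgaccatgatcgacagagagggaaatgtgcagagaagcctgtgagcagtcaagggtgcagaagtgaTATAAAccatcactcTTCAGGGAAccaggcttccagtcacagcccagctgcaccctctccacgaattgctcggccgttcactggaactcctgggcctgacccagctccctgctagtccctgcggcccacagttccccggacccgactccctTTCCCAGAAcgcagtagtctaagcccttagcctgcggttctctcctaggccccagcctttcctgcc
In the Ltb run, bases 164 to 173 match the NF-kB consensus on the opposite strand and bases 79 to 87 match the STAT motif. The Tnf run holds TATAAA at bases 222 to 227. The Lta run holds TATAAA at bases 84 to 89 and the STAT motif at bases 99 to 107 and 235 to 243. TGANTCA was found in none of the 3 windows. Such matches are descriptions of the letters and do not show that a factor binds.

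Promoter windows were listed for 27 of the 35 members and for 27025 genes in all. The NF-kB consensus was found in 3 of the 27 (Ltb, Tnfrsf8 and Tnfrsf9), or 11.1%, against 5.14% of all genes with a window. TTCNNNGAA was found in 8 (29.6%, against 9.55%), among them Lta, Ltb, Tnfrsf19 and Tnfrsf9, which rose, and Tnfrsf1a, Tnfrsf1b, Tnfrsf18 and Tnfrsf25, which were not called. TATAAA was found in 6 (22.2%, against 15.7%) and TGANTCA in 4 (14.8%, against 8.97%).

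Of the other ligands, 4 rose. Tnfsf10 encodes TRAIL, a ligand that can trigger apoptosis through death receptors. It read 8.43, 8.49 and 8.52 in WT and 9.02, 9.28 and 9.29 in KO, with KO replicate 1 below the other two KO arrays but above WT. The difference was 0.71 (SE 0.0719), or 1.64-fold (limma adjusted p = 8.7e-05). Tnfsf4 encodes OX40 ligand, a costimulator of T cells. Its dim signal of 7.28, 7.14 and 7.45 in WT became 7.87, 7.69 and 7.86 in KO, which did not overlap. The difference was 0.52 (SE 0.0805; limma adjusted p = 0.0015), and at such low signal its size is less certain.

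Tnfsf8, which encodes CD30 ligand, had signals of 9.73, 9.66 and 9.63 in WT and 10.02, 10.16 and 10.10 in KO. The groups were separate, with a difference of 0.42 (SE 0.0512; limma adjusted p = 0.0003). Tnfsf11 encodes RANKL, the ligand that drives osteoclast formation and lymph node development. It read 11.31, 11.34 and 11.12 in WT and 11.62, 11.60 and 11.56 in KO, so that all KO arrays were above all WT arrays. The difference was 0.34 (SE 0.0606; limma adjusted p = 0.0037).

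Tnfsf9, which encodes 4-1BB ligand, was the ligand that fell. Its signal was 8.67, 8.62 and 8.64 in WT and 8.40, 8.42 and 8.35 in KO. All KO arrays were lower, by a mean of −0.25 (SE 0.0422; limma adjusted p = 0.0023). Its neighbours on chromosome 17 are Cd70, the CD27 ligand, which fell by 0.21 (limma adjusted p = 0.0043), and Tnfsf14, which encodes LIGHT and differed by −0.13 without passing the test (limma adjusted p = 0.28).

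The remaining 5 ligands did not pass the test. Besides Tnfsf14 they were Tnfsf15 (TL1A), with a difference of 0.11 (95% interval −0.015 to 0.24), and Tnfsf13b (BAFF), with 0.0064 (−0.11 to 0.13). Tnfsf18 (GITR ligand) differed by −0.057 (−0.26 to 0.15) and Cd40lg (CD40 ligand, the signal of helper T cells) by 0.0035 (−0.12 to 0.13). Signals of Tnfsf18 and Cd40lg lay below the lower quartile of every array in both genotypes, where a difference would be hard to see. Tnfsf14 was dim as well, with a mean of 7.27 against a lower quartile of 7.45 over the means of all genes.

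Among receptors without a death domain that bind TRAF proteins, 4 of 14 rose (28.6%, against 9.66% of all genes) and 0 fell (against 10.2%). The largest change was in Tnfrsf19, which encodes TROY, a receptor best known from the nervous system, hair follicles and stem cells. It read 9.59, 9.46 and 9.60 in WT and 10.85, 10.87 and 10.99 in KO. The groups were far apart, with a difference of 1.36 (SE 0.0572), or 2.56-fold (limma adjusted p = 2.4e-07). Tnfrsf9, the receptor 4-1BB, had signals of 8.36, 8.38 and 8.38 in WT and 8.62, 8.60 and 8.59 in KO. Its rise of 0.23 (SE 0.0391) was small but larger than the spread in either group (limma adjusted p = 0.0023).

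Tnfrsf13b and Cd40 rose by little. Tnfrsf13b encodes TACI, a receptor for BAFF and APRIL on B cells, and read 10.86, 10.81 and 10.93 in WT and 11.08, 10.96 and 11.10 in KO. The difference of 0.18 (SE 0.0526; limma adjusted p = 0.040) lost its call without WT replicate 1, WT replicate 2, KO replicate 1 or KO replicate 3 (limma adjusted p from 0.097 to 0.14). Cd40 read 8.77, 8.79 and 8.78 in WT and 8.94, 8.90 and 8.91 in KO, which did not overlap. Its difference of 0.13 (SE 0.0393; limma adjusted p = 0.039) lost its call without any 1 of the 6 arrays (limma adjusted p from 0.059 to 0.12).

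The other 10 receptors of this class did not pass. Tnfrsf13c, the BAFF receptor that keeps mature B cells alive, read 11.76, 11.52 and 11.46 in WT and 11.71, 11.57 and 11.65 in KO. The groups overlapped (difference 0.061, 95% interval −0.11 to 0.23). Tnfrsf1b, the TNF receptor without a death domain, was higher on every KO array, but its difference of 0.14 missed the threshold (limma adjusted p = 0.060). It passed after a repeated quantile normalization (limma adjusted p = 0.028), after removal of genes below the median (0.020) or the 25th percentile of signal (0.034), and with trend and robust options (0.038). Ltbr, the receptor for lymphotoxin beta, differed by −0.031 (95% interval −0.14 to 0.081). Tnfrsf17 (BCMA, a plasma cell receptor), Tnfrsf4 (OX40), Tnfrsf8 (CD30) and Tnfrsf12a (FN14, the TWEAK receptor) had differences between −0.017 and 0.0086. Tnfrsf18 (GITR), Tnfrsf11a (RANK) and Tnfrsf14 (HVEM) differed by 0.047, 0.093 and 0.11.

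Of the 4 death domain receptors, 2 rose (50%, against 9.66% of all genes) and 0 fell (against 10.2%). Tnfrsf21 encodes death receptor 6. Its signal was 10.59, 10.58 and 10.54 in WT and 11.40, 11.33 and 11.38 in KO, far beyond the spread of either group. The difference was 0.80 (SE 0.0425), or 1.74-fold (limma adjusted p = 1.1e-06). Tnfrsf10b encodes the TRAIL death receptor of the mouse. It read 8.86, 8.60 and 8.76 in WT and 9.23, 9.17 and 9.13 in KO, a difference of 0.43 (SE 0.0666) or 1.35-fold (limma adjusted p = 0.0014). Tnfrsf1a, the TNF receptor with a death domain, differed by 0.068 and its groups overlapped (95% interval −0.13 to 0.27). Tnfrsf25, the receptor for TL1A, was higher on every KO array with a difference of 0.14 that was not called (limma adjusted p = 0.10).

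Tnfrsf26, Tnfrsf22 and Tnfrsf23 are neighbours on mouse chromosome 7, and their differences were unlike. Tnfrsf26, a receptor without a known human counterpart, read 10.85, 10.90 and 10.84 in WT and 11.27, 11.32 and 11.27 in KO. It rose by 0.42 (SE 0.0421; limma adjusted p = 7.9e-05). Tnfrsf22, a decoy receptor for TRAIL in the mouse, read 10.30, 10.26 and 10.32 in WT and 10.11, 10.10 and 10.15 in KO. It fell by 0.17 (SE 0.0418; limma adjusted p = 0.018), a call lost without WT replicate 1, WT replicate 3 or KO replicate 2 (limma adjusted p from 0.054 to 0.071). Tnfrsf23, the other mouse TRAIL decoy, differed by 0.0011 (95% interval −0.19 to 0.19). Tnfrsf11b, which encodes the soluble RANKL decoy osteoprotegerin, differed by 0.092 (−0.050 to 0.23).

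The changes in ligands were seldom matched by a call in their listed receptors. Of 19 textbook ligand and receptor pairs with both partners among the members, 9 had a ligand that rose and a receptor that was not called. This was so for Lta and Tnf with Tnfrsf1a and Tnfrsf1b, for Ltb with Ltbr, for Tnfsf4 with Tnfrsf4, for Tnfsf8 with Tnfrsf8, and for Tnfsf11 with Tnfrsf11a and Tnfrsf11b. Of these receptors Tnfrsf1b missed the threshold narrowly (limma adjusted p = 0.060) and passed it in some alternative settings. Both partners rose in 1 pair, TRAIL (Tnfsf10) and its death receptor (Tnfrsf10b). In 1 of the 19 pairs the partners moved in opposite directions, with Tnfsf9 lower and Tnfrsf9 higher. The receptor rose and the ligand was not called in 2 pairs, Tnfsf13b with Tnfrsf13b and Cd40lg with Cd40, and 6 pairs had no call. The receptors Tnfrsf19, Tnfrsf21 and Tnfrsf26, which rose by 1.36, 0.80 and 0.42, had no ligand in this list, so the pairs leave them out. The TRAIL decoy receptors Tnfrsf22 and Tnfrsf23 were not in this list of pairs, although the RANKL decoy Tnfrsf11b was. Tnfrsf22 was lower (difference −0.17, a call lost without some single arrays) while Tnfsf10 was higher, and Tnfrsf23 was not called. Pairs share ligands or receptors, so they are not independent, and differences between partners were not tested.

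**Figure D3:**
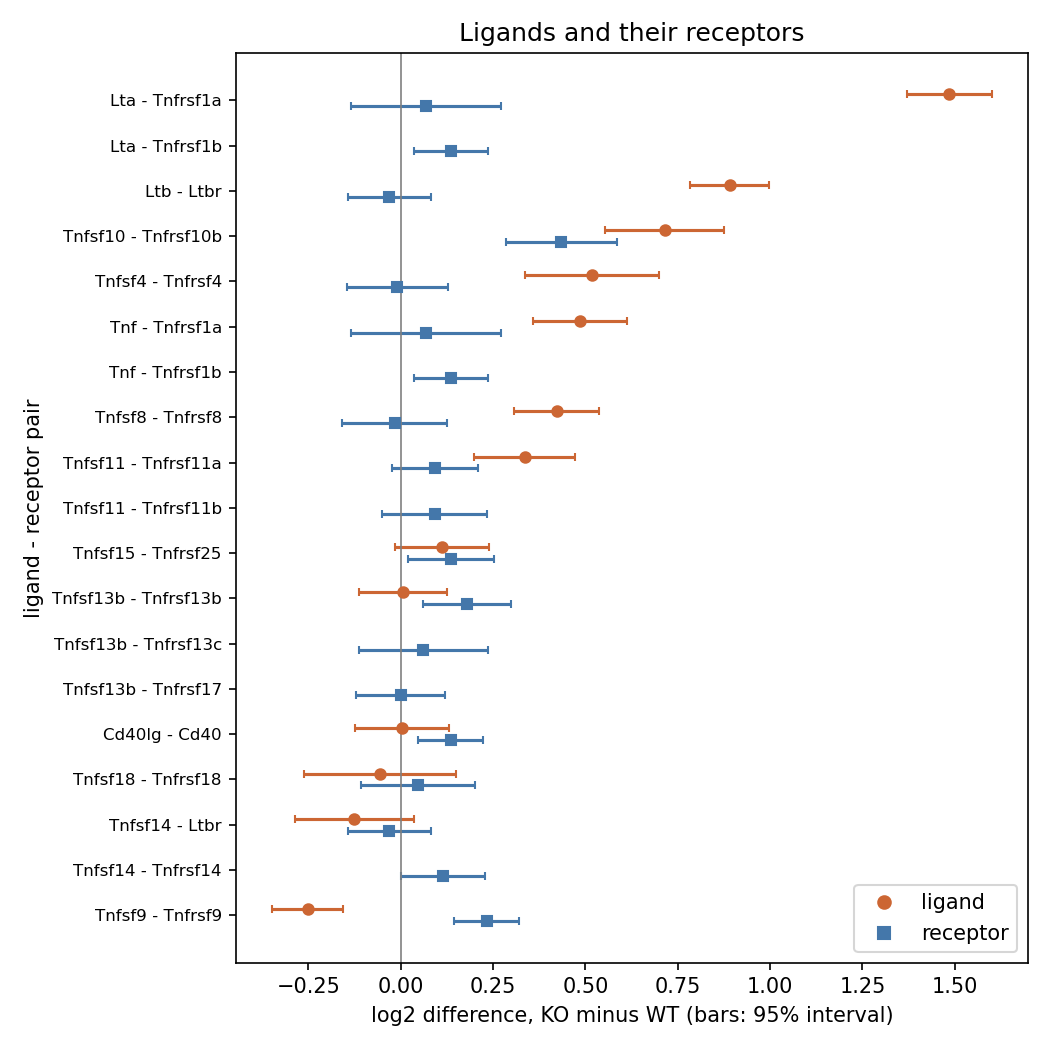
Log2 difference, KO minus WT, with 95% intervals for the ligand (orange circle, drawn once per ligand) and the receptor (blue square) of the 19 pairs. The squares lie within 0.25 of 0 except for Tnfrsf10b at 0.43, and the circles run from −0.25 to 1.49. Tnfrsf19, Tnfrsf21 and Tnfrsf26, which rose, are in no pair and are not drawn.

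For the lists that follow, the shares over all genes are again 9.66% higher and 10.2% lower, and no list was tested as a group. Of 11 superfamily genes under other symbols, 1 rose and 1 fell (9.09% each, near the shares over all genes), with a median difference of 0.015. Eda2r, a receptor for ectodysplasin A2, rose by 1.25 (SE 0.0575; limma adjusted p = 4.3e-07) from a dim WT signal of 6.99 ± 0.11 to 8.24 ± 0.036 (SD, n = 3). Its WT signal lay below the lower quartile of the genes on each array, so the size of the difference is uncertain. Cd70 fell as given above. The death receptor gene Fas and its ligand gene Fasl differed by −0.033 and 0.15 and were not called (limma adjusted p = 0.72 and 0.089).

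Of 23 receptor adaptors and ubiquitin ligases, 6 rose (26.1%, against 9.66% of all genes) and 1 fell (4.35%, against 10.2%), with a median of 0.034. Birc3, the ubiquitin ligase cIAP2 recruited by TRAF2, rose by 0.30 (limma adjusted p = 0.0018), and the adaptor gene Traf5 rose by 0.27 (0.016, but 0.056 without KO replicate 3). Tnip2, an NF-kB inhibitor that binds A20, rose by 0.24 (0.0039), whereas Tnfaip3, which encodes A20 itself, fell by 0.24 (0.0024). Of 10 genes for NF-kB subunits and inhibitor proteins, 4 rose (40.0%, against 9.66% of all genes) and 0 fell in limma (median 0.12, and 5 at an unadjusted p under 0.05). They were Nfkbiz (0.60, limma adjusted p = 1.5e-05), Nfkbid (0.35, 0.0020) and Nfkbie (0.20, 0.0063), which encode inhibitor-type proteins, and the subunit gene Rel (0.19, 0.027). Rel lost its call without any 1 array except KO replicate 1 (limma adjusted p from 0.063 to 0.087).

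The list of kinases below the receptors also held Tab1, Tab2, Tab3 and Ikbkg, which encode partner subunits and not kinases. Of its 17 genes 2 rose and 2 fell (11.8% each, near the 9.66% and 10.2% of all genes), with a median of 0.029. Map3k8, the kinase TPL2 that links NF-kB signalling to ERK, rose by 0.53 (limma adjusted p = 7.9e-05) and Tbk1 rose by 0.22 (0.0096). The JNK gene Mapk8 fell by 0.53 (5.7e-05) and the p38 gene Mapk14 fell by 0.24 (0.0041). Among 13 death signalling genes 2 rose and 1 fell (15.4% and 7.69%, against 9.66% and 10.2% of all genes), with a median of 0.039. Mlkl, the pore-forming effector of necroptosis, fell by 1.76 (SE 0.0776; limma adjusted p = 3.3e-07), from 8.98, 9.06 and 8.98 on the WT arrays to 7.09, 7.43 and 7.20 on the KO arrays. The KO signal lay below the lower quartile of the genes on each array, so the size of the fall is uncertain. The pro-apoptotic gene Bid rose by 0.21 (0.010) and Dap by 0.16 (0.021), and Dap lost its call without WT replicate 2, WT replicate 3 or KO replicate 1 (limma adjusted p from 0.056 to 0.076).

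Of 11 genes for ligand shedding and processing, 5 rose (45.5%, against 9.66% of all genes) and 2 fell (18.2%, against 10.2%), with a median of 0.12. Adam17, the protease that releases TNF from the membrane, rose by 0.27 (limma adjusted p = 0.0019), and Rhbdf2, which encodes the iRhom protein that brings ADAM17 to the surface, rose by 0.37 (0.0011). The intramembrane protease gene Sppl2a rose by 0.20 (0.0094), and Adam8 fell by 0.19 (0.016, but 0.060 without WT replicate 2 and 0.054 without KO replicate 2). Of 10 genes for mRNA decay or binding, 1 rose (near the 9.66% of all genes) and 3 fell (30.0%, against 10.2%), with a median of −0.068. Zc3h12c, a regnase family gene, fell by 2.82 (SE 0.0539; limma adjusted p = 1.2e-09), to a KO signal near the lower quartile of the genes, where the size is uncertain. Zfp36, which encodes tristetraprolin, the protein that destabilises Tnf mRNA, fell by 0.27 (0.0019). Rc3h1, which encodes roquin, fell by 0.14 (0.037), a call lost without any 1 array (limma adjusted p from 0.055 to 0.11). The mean of its 2 probe sets was not called (limma adjusted p = 0.08). Zc3h12a, which encodes regnase, rose by 0.17 (0.018) and lost its call without WT replicate 1, WT replicate 2 or KO replicate 3 (limma adjusted p from 0.053 to 0.069).

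Of 14 transcription factor genes linked to ligand transcription, 2 rose and 1 fell (14.3% and 7.14%, near the 9.66% and 10.2% of all genes), with a median of −0.030. Egr1, an ERK-induced factor, fell by 0.51 (limma adjusted p = 2.0e-05). Bach2, a transcriptional repressor active in B lineage cells, rose by 0.29 (0.00064). The myeloid and B lineage factor gene Spi1 rose by 0.16 (0.039), a call lost without any 1 array (limma adjusted p from 0.051 to 0.14). Of 7 genes that the lymphotoxin beta receptor induces in lymphoid stroma, 0 rose in limma and Cxcl13 alone fell (14.3%, against 10.2%). Cxcl13 fell by 0.21 from a dim signal of 6.95 (limma adjusted p = 0.038). Icam1 alone of the 7, at 10.77, lay above the median of gene means, 8.62. The samples were pre-B cells and not stroma, so this list cannot show whether the lymphotoxins act on stroma. Unadjusted p was under 0.05 for 2 of the 7, and Cxcl13 lost its call without WT replicate 1, WT replicate 2, KO replicate 2 or KO replicate 3 (limma adjusted p from 0.053 to 0.13).

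**Figure D4:**
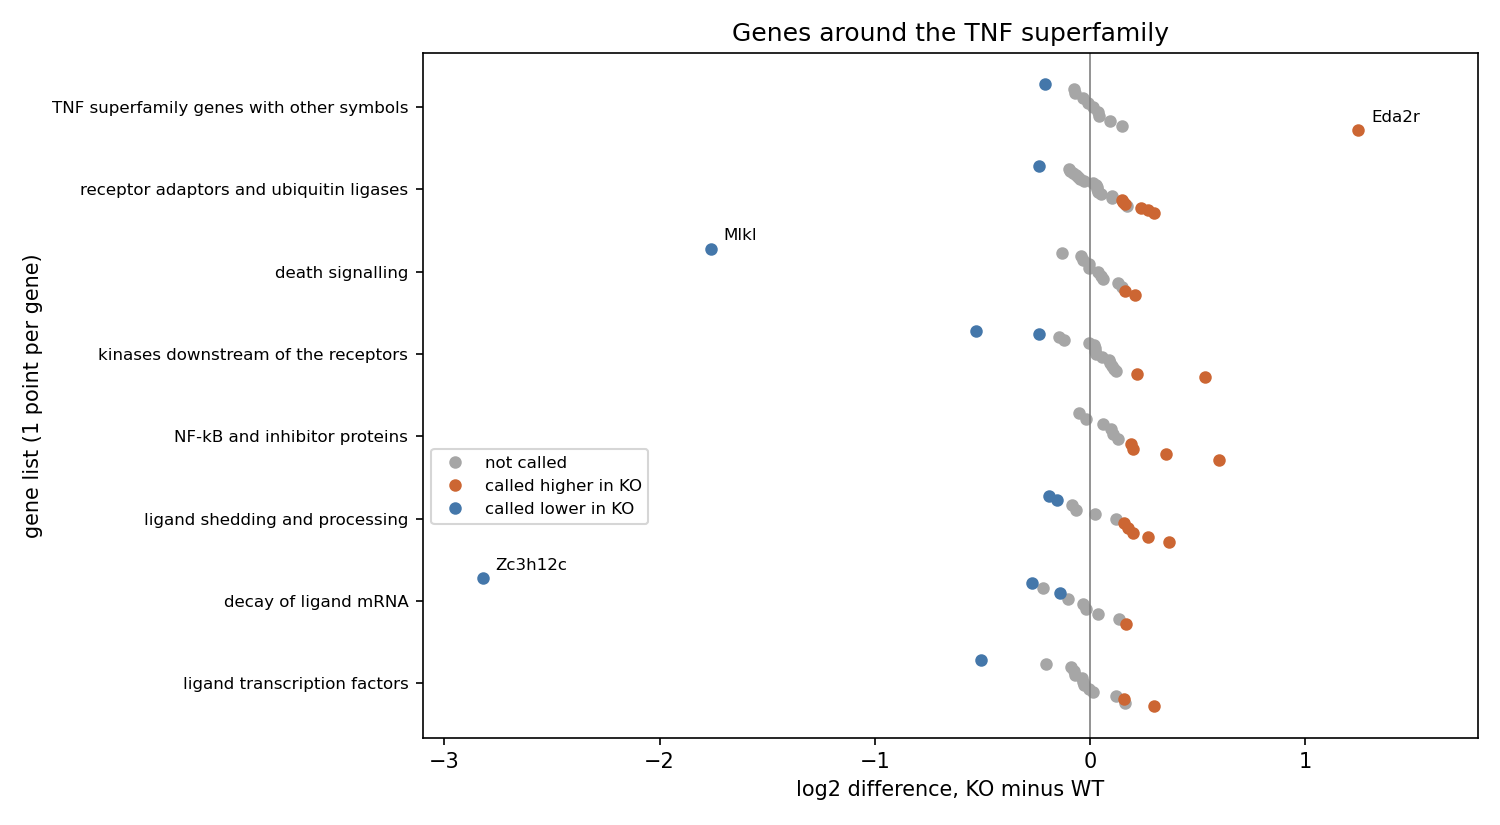
Log2 difference, KO minus WT, of each measured gene in 8 lists, with genes called higher in orange, called lower in blue and not called in grey. All other points lie within 0.60 of 0, with Eda2r at 1.25, Mlkl at −1.76 and Zc3h12c at −2.82 beyond them.

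The arrays carried B lineage transcripts in both genotypes. All 9 measured B lineage markers lay above the median signal of all genes, with Igll1 at 14.52 in WT and 14.50 in KO. On log2 of their mean linear signal the list stood at 13.34 to 13.35 in WT and 13.28 to 13.30 in KO. In it 1 gene rose and 3 fell, namely Rag1 (0.20), Rag2 (−0.43), Vpreb1 (−0.27) and Blnk (−0.23). Rag1 lost its call without WT replicate 1, WT replicate 3, KO replicate 2 or KO replicate 3, and Vpreb1 without KO replicate 2 or KO replicate 3 (limma adjusted p from 0.052 to 0.094).

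Some genes that other blood cells use also moved with the genotype. Of 12 T and NK cell markers 3 rose and 1 fell (Cd2 by 1.02, Klrd1 by 0.61, Cd8b1 by 0.23 and Lat by −0.44). The list stood at 8.51 to 8.55 in WT and 8.93 to 8.96 in KO. In this mean of linear signals Cd2 alone went from 10.62 to 11.64 in group means. The median difference of the list was 0.12, and 8 of its 12 genes were not called. WT signals of Klrd1 and Cd8b1 lay below the lower quartile of the genes on each array, so the sizes of these rises are uncertain. The T cell receptor complex genes Cd3d, Cd3e and Cd3g had group means of 6.97 to 7.08, 8.44 to 8.55 and 6.54 to 6.66, and none was called. The NK cell gene Ncr1, at 6.58 in WT and 6.72 in KO, was not called either. Of 12 myeloid markers 3 rose (Ly86 by 4.31, Fcgr3 by 1.72 and Lyz2 by 0.70) and 0 fell, and the list stood at 7.80 to 7.85 in WT and 9.81 to 9.91 in KO. That level is a mean of linear signals, in which Ly86 alone went from 8.62 to 12.93 in group means. The median difference of the list was 0.033, and 9 of its 12 genes were not called. The macrophage and neutrophil genes Csf1r, Itgam, Adgre1 and S100a8 lay between 6.32 and 7.53 in group means and were not called. Dendritic markers had 0 calls of 6 in limma (0 also at an unadjusted p under 0.05), with Siglech at −0.075 and Itgax at 0.084. Of 9 stromal markers Fn1 rose by 0.22 and lost its call without WT replicate 1, KO replicate 1 or KO replicate 2 (limma adjusted p from 0.060 to 0.071). Of 4 erythroid markers Car1 rose by 0.16 and lost its call without any 1 array except KO replicate 3 (limma adjusted p from 0.051 to 0.11). Car2 was bright, at 13.52 in WT and 13.47 in KO, and was not called. It alone of the 4 lay above the median signal of all genes. The part of other cell types in the changes of the family was not tested.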

How the data were processed

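Total RNA of 3 Dusp6 WT and 3 Dusp6 KO samples was measured on Affymetrix arrays. The authors deposited log2 signals, 1 per probe set and array, made with RMA and Partek 6.5 per the submitters' processing notes. The sources used here give no RMA settings, and the values themselves, from 3.23 to 14.8, showed the log2 scale. For arrays no read depth exists, and their number limits the precision (median SE of a difference 0.051).

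Of 35556 probe sets, 21789 had 1 symbol in the platform annotation, 1621 several and 12146 none. The brightest probe set stood for a gene, which left 19938 genes. Of these, 19856 were found by Entrez identifier in the RefSeq table of GRCm38.p6. Promoter sequences and gene order are RefSeq's.

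Across all 19938 genes limma 3.58.1 under R 4.3.3 (two-sided moderated test of KO against WT, no covariate) was run, with Benjamini-Hochberg adjustment and calls at an adjusted p under 0.05. The fit was tested on simulated data. Named were Dusp6, the members, and up to 4 called genes per list with the largest differences, or the 2 smallest p. In the lists, 168 of 180 entries were measured. The members and lists were chosen with earlier results of these data known, and chromosome neighbours, Fas, Fasl and uncalled defining markers are named outside this rule. The alternatives tried were another normalization, filters on dim genes, probe set rules, eBayes options, each array left out and a replicate block. A group's errors are SDs over 3 arrays.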

Additional observations from a re-analysis of the deposited data

How the results depend on the processing

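In the 14 alternative settings, 12 to 15 members were called higher and 1 or 2 lower (14 and 2 reported). Over the whole table, 1491 to 2189 genes were higher and 1512 to 2411 lower, and Dusp6 stayed between −3.40 and −3.33. Of the 16 called members, 13 kept their call in every setting in which they were tested. The exceptions were Cd40, Tnfrsf13b and Tnfrsf22. Tnfrsf1b gained a call in 4 settings. Without genes below the median signal 1 member was called lower, since Tnfsf9 is then not tested. Leaving out 1 array gave 12 to 13 higher and 1 to 2 lower members (1 without WT replicate 1, WT replicate 3 or KO replicate 2). Centring arrays on their median left Cd40 and Tnfrsf13b at an adjusted p of 0.065 each, and testing every probe set left them at 0.064 and 0.097. Of 42 called genes named from the lists, 30 kept their call in every setting.

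With the replicate number as a block (replicate block), 13 members were called higher and 2 lower, with 1681 and 1764 over all genes, and Cd40 lost its call (limma adjusted p = 0.093). The labels do not say that the numbers pair samples, so the main fit did not take them as pairs. Deviations of arrays with the same number correlated at 0.0098, −0.12 and 0.053, and 2 of 6 arrays correlated best with their own number. Signals near the bottom of the array range limit what can be seen for Tnfsf18 and Cd40lg, and the signal of Tnfsf14 was dim as well.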
